A study of Homo sapiens with 4 samples.

Results

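Chromatin accessibility at the promoter shared by RRAGA and SAXO1 was examined together with the promoters of the other Rag GTPases (RRAGB, RRAGC and RRAGD). Also included were the promoters of HAUS6, PLIN2 and DENND4C, the next protein-coding genes on a single side of the shared promoter on chromosome 9. These 8 rows, of 28775 in the promoter table, were found by gene symbol. RRAGA and SAXO1 were chosen by their readout, since they are higher in MORC2 KO than in WT in these same 4 libraries, and their difference is given as a description without a test. The other 6 were chosen by kinship or position and are tested in the fit across all rows. RRAGB lies on chromosome X, RRAGC on chromosome 1 and RRAGD on chromosome 6.

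The data are ATAC-seq libraries from HEK293T, a human embryonic kidney cell line. ATAC-seq reads out exposed DNA by letting the Tn5 transposase insert adapters into it. The groups were wild type (WT, 2 libraries) and MORC2 knock-out (KO, 2 libraries), MORC2 being an ATPase that acts with the HUSH silencing complex. KO replicate 1 carries sgRNA 1 and KO replicate 2 carries sgRNA 2, both delivered with Cas9 protein. Each KO line was an uncloned bulk pool, which can hold unedited cells, and guide and KO replicate cannot be told apart. The study names the WT libraries as independent replicates. The cell line label was not checked against marker genes here. The knock-out itself was not checked here, since promoter accessibility does not measure the MORC2 protein. The MORC2 row was called higher in KO, with 37.0 and 37.5 CPM against 25.7 and 29.6 in WT (log2 fold change 0.43, edgeR adjusted p 0.000279). Its count stayed within 10% of that of its neighbour TUG1 in each library.

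Rag GTPases are small G proteins that work in pairs, RagA or RagB (RRAGA, RRAGB) with RagC or RagD (RRAGC, RRAGD). The pair sits on the lysosome, held there by the Ragulator complex, and when amino acids are plentiful it recruits the growth kinase complex mTORC1. GATOR1 switches RagA and RagB off, the folliculin complex FLCN-FNIP acts on RagC and RagD, and several sensor proteins report single amino acids to this machinery. SAXO1 encodes a protein that binds and stabilises microtubules of cilia and centrioles. HAUS6 is a subunit of augmin, which nucleates microtubules in the spindle, PLIN2 coats lipid droplets, and DENND4C activates the Rab10 GTPase.

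RRAGA and SAXO1 are arranged head to head, and the promoter window of SAXO1 contains the annotated start of RRAGA. This sequence is shown because it holds the starts of both genes. It spans 300 bases, whereas the study describes the counted windows as 2 kb. No window of this kind was at hand for RRAGA or RRAGD. The SAXO1 window was taken from RefSeq on GRCh38.p14, at chr9:19049290-19049589 on the minus strand. It runs from 250 bases before to 50 bases after the SAXO1 start. The Rag windows are shown beside it for the E-box CACGTG, the core of the site that the MiT-TFE factors bind at lysosomal genes (RRAGC at chr1:38859723-38860022, minus strand, and RRAGB at chrX:55717499-55717798, plus strand). The HAUS6 window, at chr9:19102855-19103154 on the minus strand, is shown because it shares the ETS-type letters of the SAXO1 window. Capitals mark matches on either strand to CACGTG, to the ETS-type motif CCGGAAG and to TCTCGCGA, part of a palindrome that occurs at CpG-rich promoters.
SAXO1: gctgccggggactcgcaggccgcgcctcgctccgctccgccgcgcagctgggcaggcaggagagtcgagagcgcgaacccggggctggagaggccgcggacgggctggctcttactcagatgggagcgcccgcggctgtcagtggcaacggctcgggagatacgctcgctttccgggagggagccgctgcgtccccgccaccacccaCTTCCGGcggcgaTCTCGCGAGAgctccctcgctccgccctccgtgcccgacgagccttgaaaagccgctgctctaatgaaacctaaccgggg
RRAGB: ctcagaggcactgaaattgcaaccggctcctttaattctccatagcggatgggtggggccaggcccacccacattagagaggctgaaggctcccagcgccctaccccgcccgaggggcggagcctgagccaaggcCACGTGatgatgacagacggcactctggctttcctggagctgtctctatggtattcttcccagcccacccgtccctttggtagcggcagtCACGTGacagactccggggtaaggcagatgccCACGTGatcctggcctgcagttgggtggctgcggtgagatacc
RRAGC: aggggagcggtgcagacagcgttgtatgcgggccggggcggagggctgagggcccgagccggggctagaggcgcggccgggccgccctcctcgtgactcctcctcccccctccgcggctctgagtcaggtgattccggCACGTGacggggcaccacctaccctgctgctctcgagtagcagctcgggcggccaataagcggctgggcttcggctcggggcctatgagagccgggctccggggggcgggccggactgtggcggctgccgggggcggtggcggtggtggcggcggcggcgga
HAUS6: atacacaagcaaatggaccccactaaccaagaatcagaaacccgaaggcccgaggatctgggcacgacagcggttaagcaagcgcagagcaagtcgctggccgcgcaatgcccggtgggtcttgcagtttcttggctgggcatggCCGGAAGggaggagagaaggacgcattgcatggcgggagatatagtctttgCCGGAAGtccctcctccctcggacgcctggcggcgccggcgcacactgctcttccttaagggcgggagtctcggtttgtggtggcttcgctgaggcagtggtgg

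The letters differed between these promoters. The SAXO1 window held CCGGAAG 1 time, at position −43 from its start, and TCTCGCGA on both strands in overlapping matches from −30, but no CACGTG. The RRAGB window held CACGTG 3 times and the RRAGC window 1 time, at −112, and neither held CCGGAAG or TCTCGCGA. The HAUS6 window held CCGGAAG 2 times, at −105 and −54. Of 35116 windows of the same length, 7.26% held CACGTG, 10.3% held CCGGAAG and 1.15% held TCTCGCGA. GC content was 71.3% in the SAXO1 window, 61.3% in RRAGB and 75.3% in RRAGC, against a median of 58.7% over all windows. The SAXO1 window held 39 CpG dinucleotides, against a median of 14. The window of a second annotated start of SAXO1, at chr9:19033160-19033459 on the minus strand, held 13 CpG dinucleotides and CACGTG 1 time, at −231. CACGTG was also in the PLIN2 window, 1 time at −69, and so was not limited to the Rag promoters. Matches of letters are a description and do not show binding.

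Depth bears on every value that follows. The total promoter count ranged from 9435801 to 15152636 per library, with KO replicate 2 the deepest. Mitochondrial rows took 20.6% of the count in KO replicate 2 and from 31.8% to 35.1% in the other libraries. Counts differed by more than sampling noise within each group (chi-square per degree of freedom 1.20 for KO and 1.33 for WT). Accessibility is given as raw fragment counts and as CPM scaled by TMM, which puts libraries of unlike depth on a common scale. Rows in which most fragments are shared with a neighbour are not separate observations.

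Accessibility of the RRAGA row was higher in each KO library than in either WT library. Its fragments numbered 679 in KO replicate 1, 1184 in KO replicate 2, 405 in WT replicate 1 and 407 in WT replicate 2. Scaled for depth, this was 62.3 and 69.4 CPM in KO and 42.1 and 45.1 CPM in WT, so that the groups did not overlap and the lowest KO library lay above the highest WT library. The mean was 65.8 ± 5.06 CPM for KO and 43.6 ± 2.13 CPM for WT (SD, n = 2 each). In the fit RRAGA was 1.52-fold higher in KO, a log2 difference of 0.61 (SE 0.072). Taken library by library, the 4 KO over WT log2 ratios ran from 0.47 to 0.72. The KO libraries lay 0.16 apart and the WT libraries 0.100 apart. These ratios pair the same 4 libraries and carry no test, since RRAGA was selected on this contrast. Counting error was at most 4.97% of the count in any library.

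SAXO1 gave nearly the same values, because its row counts nearly the same fragments. It held 689 and 1209 fragments in KO and 412 and 423 in WT, which exceeded RRAGA by 10, 25, 7 and 16 fragments, or by 1.47% to 3.93%. In CPM it was 63.2 and 70.9 in KO against 42.8 and 46.8 in WT. The log2 fold change was 0.59 (SE 0.071). The pair is therefore 1 measurement of the shared promoter, and the counts do not assign the difference to either gene.

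**Figure D1:**
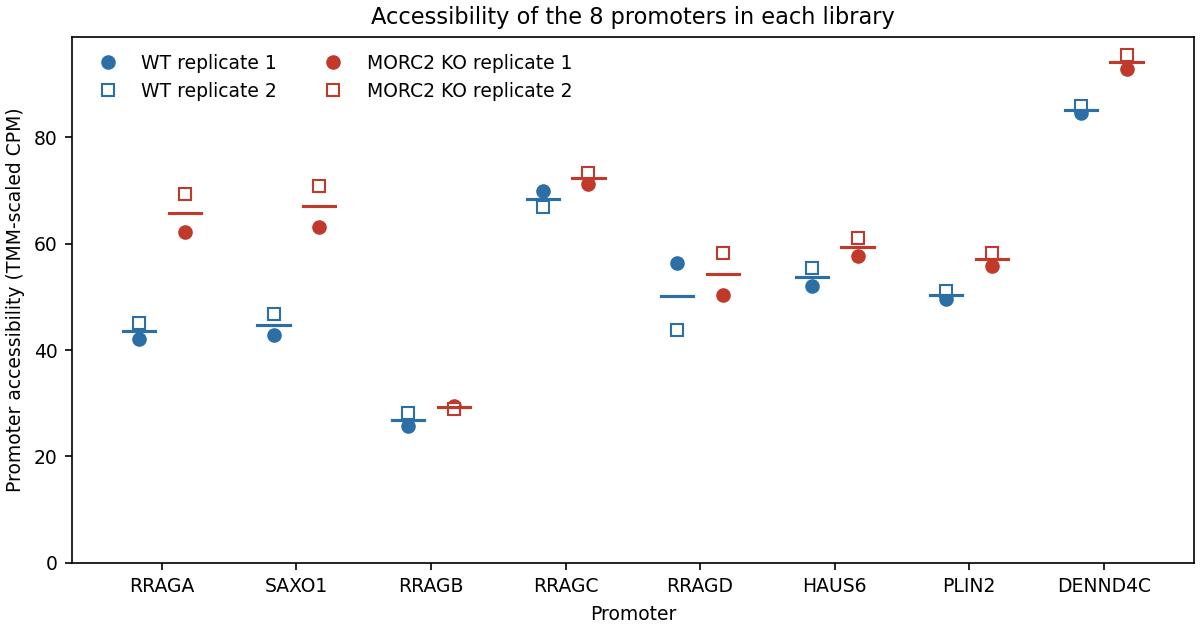
Accessibility in TMM-scaled CPM (vertical axis) of the 8 promoters (horizontal axis), with WT libraries in blue and MORC2 KO libraries in red. Filled circles are replicate 1, open squares replicate 2 and short lines the mean of the 2 libraries. RRAGA and SAXO1 moved from 43.6 and 44.8 CPM in WT to 65.8 and 67.0 CPM in KO, while the other 6 promoters moved less. At 5 of these 6 the KO pair also lay entirely above the WT pair, and at RRAGD the groups overlapped.

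The paralogues of RRAGA were not called. Over all tested rows, 4.45% passed an adjusted p of 0.05, with 3.45% higher and 0.995% lower in KO. The KO pair lay entirely above the WT pair at 25.2% of rows and entirely below it at 25.4%. The study, which tested small windows and summarised them by promoter, reports far fewer differentially accessible genes between KO and WT. Of the 6 tested members, 0 passed the adjusted threshold in edgeR's quasi-likelihood test and 0 in the DESeq2 Wald test or limma-trend, with 3 at an unadjusted p under 0.05 in edgeR (the chromosome 9 neighbours), 0 in DESeq2 and 3 in limma-trend. The KO pair lay entirely above the WT pair at 5 of the 6, RRAGD being the exception. All 6 had a WT level above 10 CPM, where this held for 39.5% of rows.

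RRAGB, the closest relative of RRAGA and its alternative in the RagA/B position, held 322 and 495 fragments in KO and 247 and 254 in WT. This was 29.5 and 29.0 CPM in KO against 25.7 and 28.1 in WT, and the KO libraries exceeded the higher WT library by little. The log2 fold change was 0.12 (SE 0.092, edgeR adjusted p 0.459), with a 95% interval from −0.058 to 0.30.

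RRAGC, a partner of RagA and RagB, held 71.3 and 73.4 CPM in KO against 70.0 and 66.9 in WT. The log2 fold change was 0.081 (SE 0.066, edgeR adjusted p 0.502), with a 95% interval from −0.049 to 0.21. RRAGC had the smallest difference of the 8 promoters, and with loess offsets on abundance it was 0.0019.

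RRAGD, the alternative partner, held 50.4 and 58.2 CPM in KO against 56.4 and 43.9 in WT. Its WT libraries lay farther apart than its group means and the groups overlapped. The log2 fold change was 0.13 (SE 0.071, edgeR adjusted p 0.298), with a 95% interval from −0.013 to 0.27. The value moved with each library left out. Without WT replicate 1 it was 0.33, and without WT replicate 2 it was −0.036. Without KO replicate 1 it was 0.23, and without KO replicate 2 it was 0.011.

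The upper ends of these 3 intervals, from 0.21 to 0.30, lay under the lower end of the interval for RRAGA, 0.47. That gap carries no test, since RRAGA was selected on this contrast.

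The neighbours on chromosome 9 were each slightly higher in KO, without passing the adjusted threshold. HAUS6 held 57.8 and 61.0 CPM in KO against 52.0 and 55.4 in WT, and the log2 fold change was 0.15 (SE 0.070, edgeR adjusted p 0.190). PLIN2 held 55.9 and 58.3 CPM in KO against 49.6 and 51.2 in WT, and the log2 fold change was 0.185 (SE 0.071, edgeR adjusted p 0.106). DENND4C held 92.9 and 95.5 CPM in KO against 84.6 and 85.8 in WT, and the log2 fold change was 0.15 (SE 0.063, edgeR adjusted p 0.164). In these 3 rows the KO pair lay entirely above the WT pair, and the fitted levels were 10.7% to 13.7% higher in KO. With loess offsets the log2 fold changes were smaller, at 0.079 for HAUS6, 0.11 for PLIN2 and 0.061 for DENND4C. Those of RRAGB and RRAGD were 0.075 and 0.057, and 0 of the 6 members then had an unadjusted p under 0.05. HAUS6 and PLIN2 counts also fell within 10% of each other in every library, but their annotated windows do not overlap.

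By level, on windows that the study describes as 2 kb for every gene, the order in WT was DENND4C (85.2 CPM), RRAGC (68.4), HAUS6 (53.7), PLIN2 (50.4), RRAGD (50.1), SAXO1 (44.8), RRAGA (43.6) and RRAGB (26.9). From HAUS6 to RRAGA, each neighbour in this order had WT libraries that overlapped with those of the next or, for HAUS6 and PLIN2, lay within 1 CPM of overlapping. In KO, SAXO1 (67.0 CPM) and RRAGA (65.8) stood in places 3 and 4, above HAUS6 (59.4), PLIN2 (57.1) and RRAGD (54.3), while DENND4C, RRAGC and RRAGB kept places 1, 2 and 8. In WT, 20.9% of tested rows were more accessible than RRAGA, 6.23% more than RRAGC and 38.6% more than RRAGB.

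Among all 27647 tested promoters, RRAGA ranked 49 and SAXO1 53 by log2 fold change. There were 2199 rows with a WT level within 10% of that of RRAGA. None of these (0 of 2199) had a larger log2 fold change, and their median was 0.060. The 2199 rows include RRAGA itself and SAXO1. Both were selected on this contrast, so these places follow from the choice and carry no test.

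**Figure D2:**
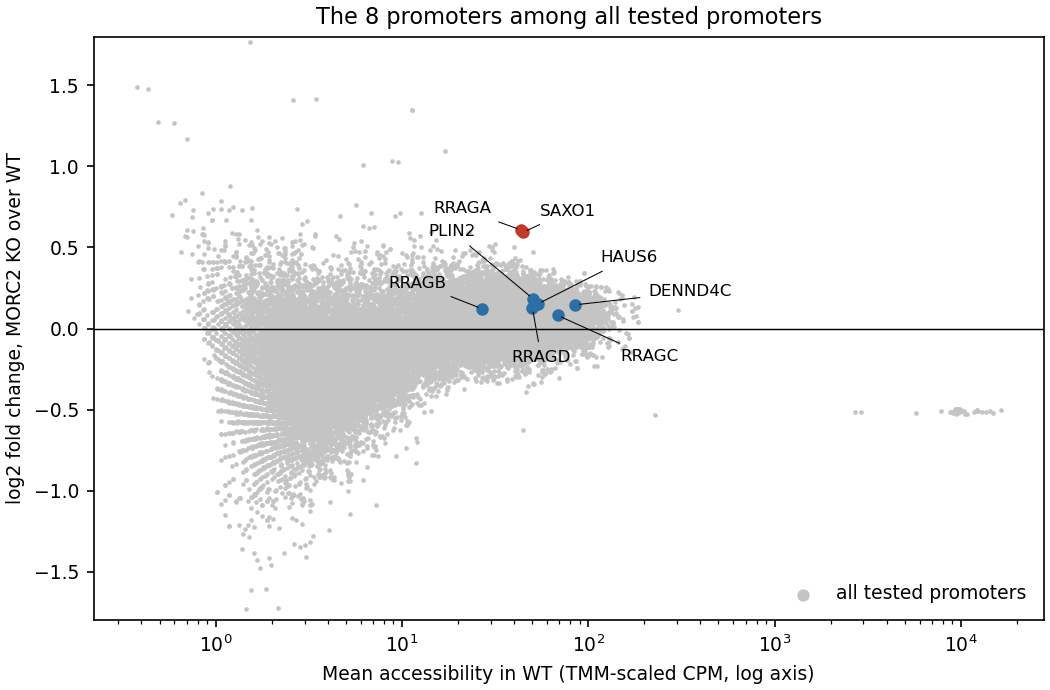
Log2 fold change of MORC2 KO over WT (vertical axis) against mean WT accessibility in CPM (horizontal log axis) for 27647 tested promoters in grey, with RRAGA and SAXO1 in red and the other 6 members in blue. RRAGA and SAXO1 lie at the upper edge of promoters of their level, at 0.61 and 0.59, and the others lie between 0.081 and 0.185. The grey points at the far right are mitochondrial rows.

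The rows next to the shared promoter were described in gene order, 10 on each side. Of these 20 rows, which include HAUS6, PLIN2 and DENND4C, 2 were called higher and 0 lower, against 3.45% and 0.995% of all rows. The KO pair lay entirely above the WT pair at 11 and entirely below it at 3, against 25.2% and 25.4% of all rows. Among the 13 rows with a WT level of 10 CPM or more it lay above at 10, against 39.5% of all rows at that level. CNTLN, which encodes the centriolar protein centlein, held 21.5 and 25.3 CPM in KO against a mean of 18.4 ± 0.829 in WT (SD, n = 2). Its log2 fold change was 0.36 (SE 0.11, edgeR adjusted p 0.0239). CCDC171, a coiled-coil protein, held 48.6 and 51.6 CPM in KO against 43.2 and 40.6 in WT. Its log2 fold change was 0.26 (SE 0.074, edgeR adjusted p 0.0189). These calls depended on the fit. With other fits, 0 rows were called with loess offsets (3 at an unadjusted p under 0.05) and 0 with the DESeq2 Wald test (2 at an unadjusted p under 0.05). They numbered 0 without KO replicate 2 or without WT replicate 2, and 4 without WT replicate 1.

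Fold changes near the shared promoter split by level. Chosen after the values were seen, a division at 10 CPM in WT put 13 of the 20 rows at or above it, and all 13 had a log2 fold change above 0, with a median of 0.17 and a range from 0.073 to 0.36. The 7 rows below 10 CPM had a median of −0.41, with 3 above 0. Over all tested rows the level moved with the fold change as well, 66.1% of rows at or above 10 CPM lying above 0 (median 0.055) and 20.7% of those below it (median −0.22). With loess offsets, which remove that trend, the 13 nearby rows had a median of 0.12 and again all lay above 0, against a median of 0.00013 and 50.1% for all rows at that level. Within 25 rows on each side and without the members, 17 rows stood at or above 10 CPM, with a median of 0.17. RRAGA exceeded that median by 0.44, or by 0.42 with loess offsets, and HAUS6, PLIN2 and DENND4C differed from it by −0.015, 0.018 and −0.021. None of the 47 tested rows in that stretch had a larger log2 fold change than RRAGA, which was selected on this contrast. The part that the level or a regional shift plays in these values was not tested.

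**Figure D3:**
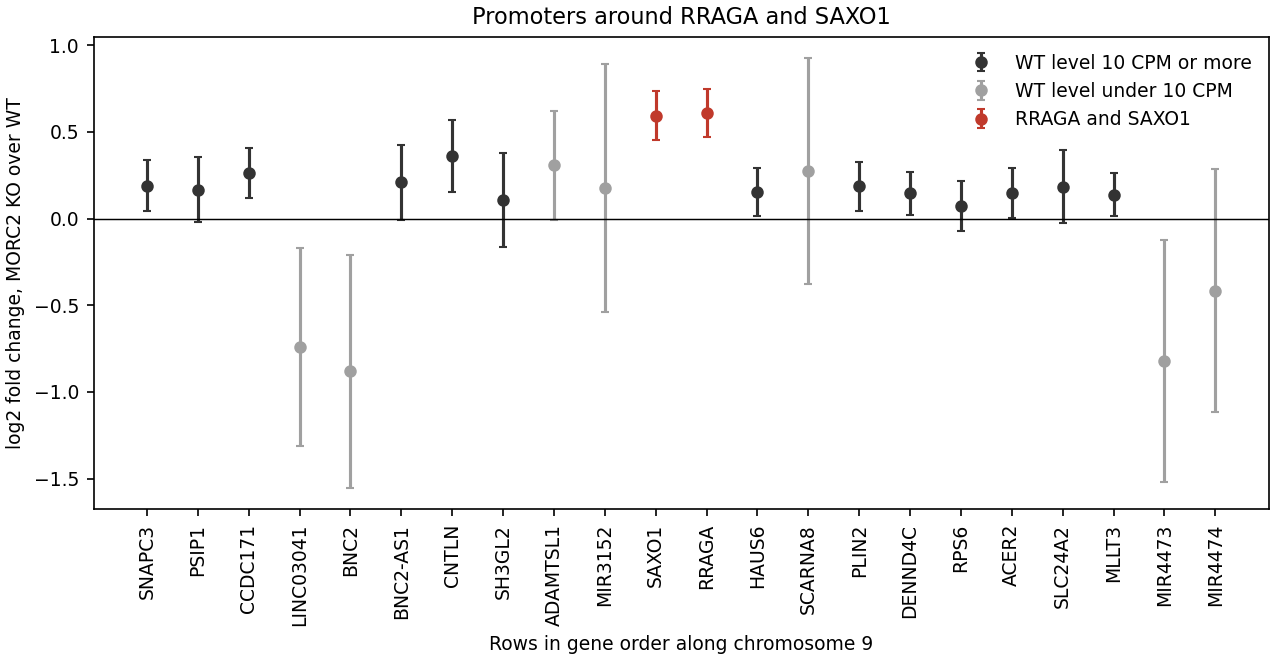
Log2 fold change of MORC2 KO over WT (vertical axis) with 95% intervals for RRAGA, SAXO1 and the 10 rows on each side in gene order (horizontal axis). Red marks RRAGA and SAXO1, black the 13 rows with a WT level of 10 CPM or more, all above 0, and grey the 7 rows under 10 CPM, which run from −0.88 to 0.31.

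The pathway in which RagA works was described from a list of 40 other genes in 9 groups, all of which passed the filter. Of the 40, 2 promoters were called higher and 0 lower, a share near the background of 3.45% and 0.995% of all rows. At an unadjusted p under 0.05 there were 7, against 5626 of 27647 rows, and the median log2 fold change was 0.020, against −0.017 over all rows. The KO pair lay entirely above the WT pair at 11 of the 40 and entirely below it at 10, against 25.2% and 25.4% of all rows. All of the 40 but CASTOR2 and TFEC had a WT level above 10 CPM. Among all tested rows at or above that level, the KO pair lay above at 39.5% and below at 2094 of 15843. The median log2 fold change of those rows was 0.055, and the part of the level was not tested. No pathway promoter had a larger log2 fold change than RRAGA, but RRAGA was selected on this contrast and the comparison carries no test.

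The called promoters were those of SLC38A9 and TBC1D7. SLC38A9, the lysosomal transporter that senses arginine and binds the Rag GTPases, held 48.8 and 49.6 CPM in KO against 40.9 and 40.2 in WT. Its log2 fold change was 0.28 (SE 0.075, edgeR adjusted p 0.0124), and the replicates of each group lay within 1 CPM. TBC1D7, the third subunit of the TSC complex that switches off the mTORC1 activator RHEB, held 38.8 and 39.5 CPM in KO against 30.0 and 33.4 in WT. Its log2 fold change was 0.31 (SE 0.083, edgeR adjusted p 0.0137). The count of the TBC1D7 row was within 10% of that of the readthrough gene TBC1D7-LOC100130357 in every library. With loess offsets SLC38A9 stood at 0.21 and TBC1D7 at 0.25, and neither was called (adjusted p 0.130 and 0.115). Neither was called with total count scaling, the DESeq2 Wald test or thinned counts, or without KO replicate 2 (adjusted p 0.240 and 0.250). SLC38A9 also lost its call without WT replicate 2 (0.27, adjusted p 0.109) and TBC1D7 without WT replicate 1 (0.23, adjusted p 0.151). Both were higher in KO in every one of these fits. Under loess offsets, AKT1S1, the mTORC1 inhibitor PRAS40, and TSC1 were called lower instead, at −0.22 (adjusted p 0.0177) and −0.29 (adjusted p 0.0485). Their TMM values were −0.14 and −0.23 (edgeR adjusted p 0.200 and 0.0821). Both rows thus lay below 0 with either scaling, while the rows that were called differed between the scalings. With TMM but without WT replicate 1, AKT1S1 stood at −0.22. The counts of AKT1S1 and TSC1 were within 10% of those of their neighbours TBC1D17 and GFI1B in every library, and whether they share fragments was not tested.

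Ragulator, GATOR1, GATOR2, KICSTOR and FLCN-FNIP had 0 called promoters in edgeR's test, and 0 of their rows had an unadjusted p under 0.05. Among the 5 Ragulator subunits the largest difference was that of LAMTOR3, at 0.18 (SE 0.099, edgeR adjusted p 0.271), and the median was 0.010. For GATOR1, the brake on RagA and RagB, the largest was that of NPRL3, at −0.12 (SE 0.10, edgeR adjusted p 0.524). For FLCN-FNIP it was that of FNIP2, at 0.079 (SE 0.084, edgeR adjusted p 0.622). GATOR2, which restrains GATOR1, reached 0.049 at MIOS, and KICSTOR, which places GATOR1 on the lysosome, −0.14 at KPTN.

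The amino acid sensors had a median of 0.14, with SLC38A9 the called promoter among 7. SAMTOR, the sensor of S-adenosylmethionine, stood at 0.19 (SE 0.066, edgeR adjusted p 0.0602). CASTOR2 had a larger value of 0.47 but an SE of 0.28, since it rested on few fragments. Subunits of mTORC1 had a median of −0.13, with MLST8 at −0.16 (SE 0.097, edgeR adjusted p 0.323) and 0 of 5 called. Of the MiT-TFE factors, which act downstream of RagC and RagD, TFEC had the largest difference, −0.70 (SE 0.36, edgeR adjusted p 0.251), at a promoter with a WT level of 1.88 CPM.

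**Figure D4:**
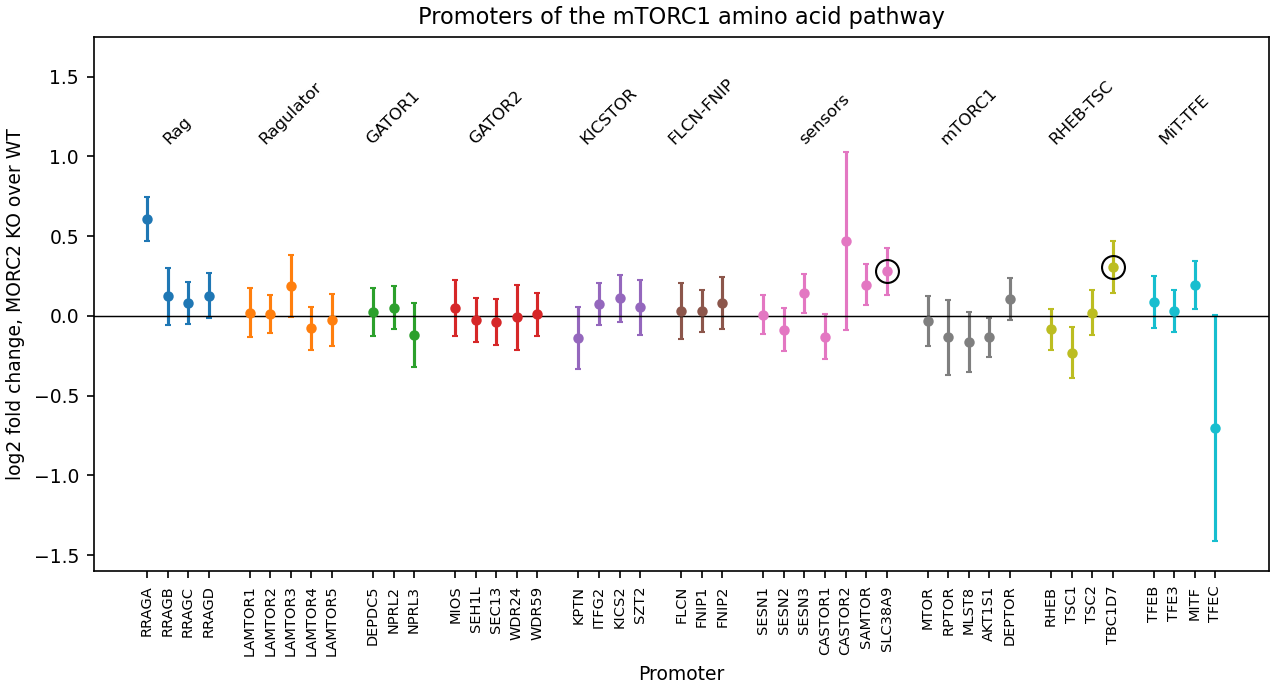
Log2 fold change of MORC2 KO over WT (vertical axis) with 95% intervals for the 4 Rag promoters and 40 promoters of the mTORC1 amino acid pathway, grouped by complex along the horizontal axis. Rings mark SLC38A9 and TBC1D7, the promoters called higher, and RRAGA, at 0.61, carries no test. Most of the other points lie within 0.2 of 0.

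Outside this stretch of chromosome 9, the promoters whose pattern over the 4 libraries was most like that of RRAGA were found by the Euclidean distance between centred log2 CPM values. The nearest was ADAMTSL4-AS1 (distance 0.035), which held 32.2 and 36.4 CPM in KO against 21.8 and 24.0 in WT. Next came ZXDB (0.076), COL6A5 (0.086), LINC00649 (0.100) and KBTBD7 (0.104). Their log2 fold changes, 0.60, 0.59, 0.65, 0.69 and 0.52 in the same order, follow from the measure itself and carry no test. Their WT levels ran from 2.89 CPM at COL6A5 to 31.4 CPM at KBTBD7.

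The difference at the shared promoter kept its direction under every alternative run. That direction carries no test, since RRAGA and SAXO1 were selected on this contrast in these same libraries. Over the fits, RRAGA ranged from 0.54 with loess offsets to 0.74 with total counts as the scale, and between 0.52 and 0.69 with 1 library omitted at a time. The lowest of these was without KO replicate 2, the deepest library with the smallest mitochondrial share. SAXO1 ranged from 0.52 to 0.72 and from 0.50 to 0.68. Less the median of nearby rows at or above 10 CPM, RRAGA stood at 0.44 and SAXO1 at 0.43. The tested members were higher together with total count scaling, from 0.21 at RRAGC to 0.32 at PLIN2, where the median of all rows was 0.12, and 0 of 6 were called.

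**Figure D5:**
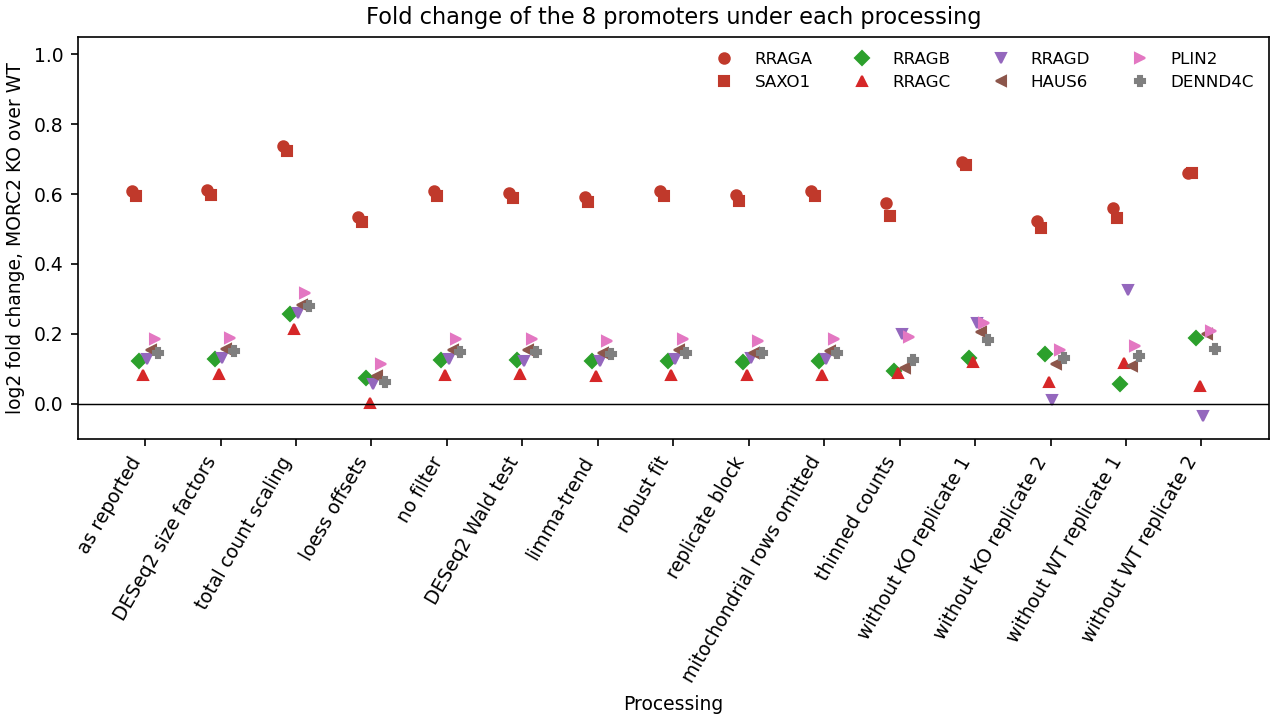
Log2 fold change of MORC2 KO over WT (vertical axis) for the 8 promoters under each processing of the counts (horizontal axis). RRAGA and SAXO1 in red lie between 0.50 and 0.74 in the fits plotted, and the other members lie between −0.036 and 0.33, both ends of which belong to RRAGD with a WT library left out.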

How the data were processed

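Values are raw fragment counts as deposited, 1 promoter row per NCBI Gene ID. The authors used Trim Galore and then bowtie2 against the CHM13 assembly, kept properly paired high-quality pairs and removed duplicates with Picard. They describe promoters as 2 kb windows around gene starts, and whether this table was counted by csaw or featureCounts is not given in the sources used here. The rows of the head-to-head genes RRAGA and SAXO1 count nearly the same fragments, so the 2 genes cannot be separated.

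A RefSeq table on GRCh38.p14 gave symbols for 28763 of 28775 rows, chromosomes and gene order. Its assembly is not that of the alignment, so sequences, for 6 of the 8 members, describe GRCh38.p14. The WT peak list was not used here.

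Counts were analysed with edgeR 4.0.16 (R 4.3.3): filterByExpr kept 27647 rows and removed 1128, libraries were scaled by TMM, and KO was compared with WT by the two-sided quasi-likelihood F-test (legacy fit, no covariates), with Benjamini-Hochberg adjustment over all rows and calls at 0.05. Intervals are 95% and derived from the SE. Counting errors cover counting only, as fragments carry no molecular identifiers. Rows with counts within 10% of a neighbour in every library are named as such, and may share fragments. The fit was run on simulated counts with 200 changed rows at a log2 size of 0.6. It recovered 83.5% of them and made 14 false calls. The simulation used a common dispersion and left out rows with low counts, and smaller sizes were not simulated. Alternatives used DESeq2 1.42.0 and limma 3.58.1.

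Members, lists and tests were chosen with earlier results of these data known. Named are all members, MORC2, called rows of the lists, the largest difference per group, and the 5 rows most like RRAGA. AKT1S1, TSC1 and SAMTOR were named after their values were seen.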

Additional observations from a re-analysis of the deposited data

How the results depend on the processing

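Of the 6 tested members, 0 were called under each alternative fit that kept all 4 libraries, and 0 to 1 when each library was left out. That 1 was RRAGD, which ranged from −0.036 without WT replicate 2 to 0.33 without WT replicate 1. The 2 pathway calls became 0 with total count scaling, 0 with the DESeq2 Wald test, 0 with thinned counts (5, 3 and 8 at an unadjusted p under 0.05), 4 at an adjusted p under 0.1 (3 higher and 1 lower), and 0 to 3 when each library was left out. Loess offsets also gave 2, but both lower, and the pathway median was −0.046 there against 0.020. The 2 calls next to RRAGA became 0 with total count scaling, 0 with loess offsets, 0 with the DESeq2 Wald test and 0 with thinned counts (7, 3, 2 and 8 at an unadjusted p under 0.05), 1 with limma-trend, and 0 to 4 when each library was left out. Over all rows, counted under each alternative after seeing the data, the 1229 calls became 20 with total count scaling, 388 with loess offsets, 7 with the DESeq2 Wald test, 717 with limma-trend, 702 with thinned counts, 2249 at an adjusted p under 0.1, and 41 to 1637 when each library was left out. Higher calls made up 77.6%, and 55.7% with loess offsets, 95% with total count scaling and 69.0% at an adjusted p under 0.1. The cause was not tested. Total count scaling moved RRAGA to 0.74 and SAXO1 to 0.72, beside a shift of all rows to 0.12. Subtracting the median of nearby rows at 10 CPM or more, chosen after seeing the data, left 0.44 and 0.43, while subtracting the median of all 47 rows left 0.61 and 0.60.

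With the replicate number as a block, 765 rows were called (553 higher, 212 lower), and the calls of SLC38A9, TBC1D7, CCDC171 and CNTLN were kept. Libraries with the same number did not deviate together (correlation −0.00027 across rows), and the number was not taken as a pairing. Differences of the size seen at the RRAGA paralogues were not simulated, and their intervals limit what can be said of them.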

Other observations

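Relatives of SAXO1 and of the chromosome 9 neighbours, 14 promoters elsewhere in the genome, were also measured. In edgeR's test 0 were called higher and 1 lower, and the KO pair lay entirely above the WT pair at 1 of the 14 and entirely below it at 6. Over all rows these shares were 3.45%, 0.995%, 25.2% and 25.4%. All of the 14 but PLIN1 and HAUS7 had a WT level above 10 CPM. Among all tested rows at or above that level, the KO pair lay above at 39.5% and below at 2094 of 15843. SAXO2, the paralogue of SAXO1, stood at 0.039 on the log2 scale (SE 0.083, edgeR adjusted p 0.825). DENND4A and DENND4B stood at 0.051 and 0.083. The other 4 perilipin promoters (PLIN1, PLIN3, PLIN4 and PLIN5) all had the KO pair entirely below the WT pair, where PLIN2 had it above, but none was called. PLIN4, a coat protein of lipid droplets in fat cells, held 9.72 and 8.97 CPM in KO against 11.7 and 13.4 in WT, and the log2 fold change was −0.43 (SE 0.14, edgeR adjusted p 0.0552). The WT levels of these 4, from 5.19 to 18.9 CPM, lay under that of PLIN2, and the part of the level was not tested.

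Of the other 7 augmin subunits, HAUS3 was called lower. It held 42.2 and 48.8 CPM in KO against 51.2 and 56.4 in WT, and the log2 fold change was −0.22 (SE 0.072, edgeR adjusted p 0.0476), and its count was within 10% of that of its neighbour POLN in every library. The call was lost with DESeq2 size factors (adjusted p 0.0537), with no filter (0.0516), with limma-trend (0.0625) and with the replicate block (0.0638). It was also lost with thinned counts (0.121), with the DESeq2 Wald test (0.957) and with total count scaling (−0.095, adjusted p 0.798). Without KO replicate 1 it was −0.12 (adjusted p 0.499), without KO replicate 2 it was −0.34 (0.0980) and without WT replicate 2 it was −0.15 (0.417). It was kept with loess offsets (0.00906), the robust fit (0.0460), omission of mitochondrial rows (0.0484) and without WT replicate 1 (0.0187). HAUS7 had the largest difference among them, −0.30 (SE 0.17, edgeR adjusted p 0.293).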
